A study of Mus musculus with 12 samples.

Results

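The comparison described here set the ventral hippocampus of mice with hepatic ACOT12 knockdown that were exposed to SSDS (SSDS-shACOT12) against that of mice exposed to CSDS, across all genes. Its members were 6 of the 12 RNA-seq libraries of the study, 3 in each of the 2 groups, chosen by their group labels. All mice were labelled WT in genotype. The SSDS-shACOT12 libraries are labelled with the treatment SSDS+shACOT12, and their count columns carry the prefix TBG, which in this field usually names a hepatocyte promoter used in liver-directed viral vectors; the labels do not spell it out. The CSDS libraries carry no virus label. The other 6 libraries came from SSDS-exposed mice that carried AAV8-eGFP (SSDS-GFP) and from control mice (Control), and their levels are given below only as description. In this field the abbreviations usually mean social defeat stress in a chronic (CSDS) and a subthreshold (SSDS) form, an aggressor paradigm in which the subthreshold form is too brief to produce social avoidance by itself. The labels give only the abbreviations, no age and no strain. The 2 groups of the comparison therefore differed in the stress regimen, in the virus and in the knockdown at once, and these cannot be told apart.

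ACOT12 is a cytosolic thioesterase, abundant in liver, that splits acetyl-CoA into acetate and CoA. Acetate can reach the brain through the blood and is turned back into acetyl-CoA there by the synthetases ACSS1 and ACSS2. The ventral hippocampus is the part of the hippocampus tied to anxiety and stress responses. Defeat stress is known for effects on neuronal activity genes, glia, the vasculature and interferon signalling there, and these gene groups were followed along with chaperones, respiratory chain subunits and markers of each cell type that the dissection could hold.

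Between 15684417 and 17694570 counts were obtained per library. Markers of the labelled tissue were present throughout: all 20 dentate gyrus genes and all 20 CA1 and CA3 genes on the lists passed the expression filter. Prox1, which specifies dentate granule cells, had 105, 74.0 and 97.3 CPM (counts scaled to library size) in SSDS-shACOT12 against 91.9, 136 and 113 CPM in CSDS. Only 3 of 23 leukocyte genes and 6 of 17 choroid plexus genes passed the filter. Transcripts of the targeted gene were near the detection limit. Acot12 (ENSMUSG00000021620) had 7, 3 and 4 counts in SSDS-shACOT12 against 12, 7 and 14 counts in CSDS. The SSDS-GFP libraries held 3, 8 and 7 counts and the Control libraries 12, 10 and 9. The SSDS-shACOT12 and CSDS libraries overlapped at 7 counts, and since the knockdown was made in the liver, its level in the hippocampus is no test of the knockdown or of the labels.

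The 3 SSDS-shACOT12 libraries did not form a tight group. The median SD of a gene over the 3 libraries was 0.28 on the log2 CPM scale in SSDS-shACOT12 and 0.15 in CSDS. The library SSDS-shACOT12 2 correlated with the CSDS libraries at 0.982 to 0.987 across genes, but with SSDS-shACOT12 1 at 0.967 and with SSDS-shACOT12 3 at 0.962. Replicates 1 and 3 also showed a trend with base composition that replicate 2 and the CSDS libraries did not share in that form. When the tested genes were put into 8 bins by the GC content of their longest transcript, the bin of lowest GC (22.1% to 41.9%) had a median level of -0.48 in SSDS-shACOT12 1 and -0.53 in SSDS-shACOT12 3 relative to each gene's mean, on the log2 scale. The same bin lay at 0.18 in SSDS-shACOT12 2 and at 0.09, 0.17 and 0.12 in CSDS. In the bin of highest GC the order was turned round, where SSDS-shACOT12 lay at 0.28, -0.14 and 0.31 against levels of -0.02, -0.07 and -0.02 for CSDS. Outside the comparison, SSDS-GFP lay at 0.02, 0.32 and -0.23 in the lowest bin and at 0.03, -0.21 and 0.15 in the highest. SSDS-GFP 3 thus rose in the same direction by less. Control lay at 0.20, 0.02 and 0.17 in the lowest bin and at -0.16, -0.04 and -0.10 in the highest. The source of this trend, and its part in the results below, was not tested. For the main gene groups below, the median is therefore given also with the GC trend of every library removed or with a library left out.

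**Figure D1:**
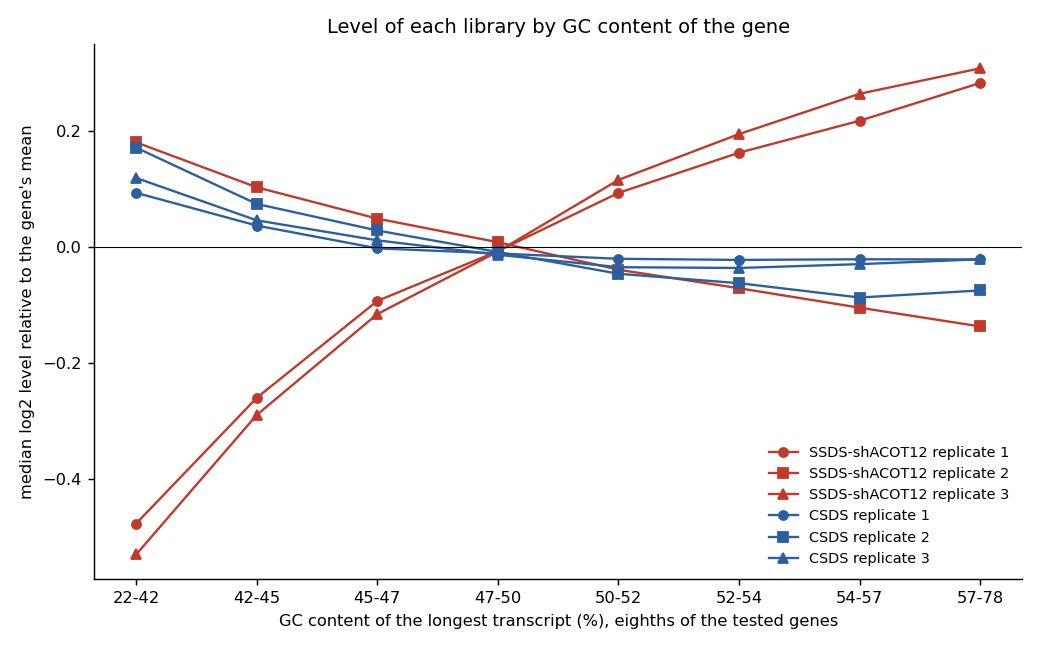
Median log2 level of each library relative to the gene's mean over the libraries (vertical axis) in 8 bins of genes by GC content in percent (horizontal axis), with SSDS-shACOT12 in red and CSDS in blue. SSDS-shACOT12 replicates 1 and 3 climb from -0.48 and -0.53 in the lowest bin to 0.28 and 0.31 in the highest, while SSDS-shACOT12 replicate 2 and the CSDS libraries decline slightly.

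No gene passed an adjusted p of 0.05 between SSDS-shACOT12 and CSDS in edgeR's quasi-likelihood test over 16235 genes (0% of the tested genes). At an unadjusted p under 0.05 there were 495 genes with a higher level in SSDS-shACOT12 (3.05%) and 777 with a lower one (4.79%). With the GC trend removed that split was 721 higher and 530 lower, and with a trend by gene length removed it was 795 and 657, so the excess of lower genes depended on this choice. The 3 SSDS-shACOT12 libraries lay all above the 3 CSDS libraries for 1188 genes (7.32%) and all below them for 1102 (6.79%). Across all tested genes the median log2 fold change was 0.02, and 51.9% of genes had a positive one. DESeq2's Wald test called 11 genes, of which Fos, Arc, Sdf2l1, Hspa1b and Kcng1 were higher in SSDS-shACOT12, while Hbb-bs, Hbb-bt, Mkx, Cadm2, 9130024F11Rik and AI593442 were lower. Without SSDS-shACOT12 2, edgeR called 3176 of 16668 genes, 1122 higher (6.73%) and 2054 lower (12.3%). Of those lower calls 1079 lay in the lowest GC bin and 5 in the highest, and of the higher calls 3 lay in the lowest and 447 in the highest. With the GC trend removed as well, 273 genes were called higher and 255 lower. The labels do not say that the replicates are separate animals, so all p-values here measure only the spread between these libraries.

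Immediate early genes, which neurons switch on within minutes of firing, had the highest median fold change of any neuronal group. Of the 30 genes on the list, 28 had a higher mean level in SSDS-shACOT12, with a median log2 fold change of 0.73 against 0.02 over all tested genes. At an unadjusted p under 0.05 there were 16 with a higher and 0 with a lower level, beside 3.05% and 4.79% of all tested genes. For 10 of the 30 all SSDS-shACOT12 libraries lay above CSDS, beside 7.32% of all genes. The median was 0.63 with the GC trend removed, 0.86 without SSDS-shACOT12 2 and 0.39 without SSDS-shACOT12 3. With all 6 libraries edgeR called none of the members and DESeq2 called Fos and Arc. Without SSDS-shACOT12 2 edgeR called 17 of 30 higher, beside 6.73% of all genes in that fit. With the GC trend removed as well it called 6 of 30, where 528 of 16651 genes were called.

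Fos (mm10, chromosome 12, 85473890 to 85477273), the transcription factor gene most used as a mark of recent activity, had 14.4, 12.99 and 49.99 CPM in the SSDS-shACOT12 libraries against 4.89, 4.99 and 6.04 CPM in CSDS. All 3 SSDS-shACOT12 libraries were above the highest CSDS library, and replicate 3 stood far above the other two. The log2 fold change was 2.26 ± 0.49 (SE), with an adjusted p of 0.581 in edgeR and 0.000499 in DESeq2. Levels in the other groups were 22.8, 17.5 and 12.6 CPM in SSDS-GFP, and 3.98, 1.62 and 5.35 CPM in Control. The SSDS-GFP libraries were all above the CSDS libraries as well, and 2 of the 3 Control libraries were below them.

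Arc, which encodes a synaptic protein that drives receptor internalisation, had 212, 84.9 and 155 CPM in SSDS-shACOT12 against 49.3, 75.8 and 56.6 CPM in CSDS (log2 fold change 1.296 ± 0.306, adjusted p = 0.581 in edgeR). Egr2, a zinc finger factor, had 2.17, 4.01 and 8.36 CPM in SSDS-shACOT12 against 1.19, 1.45 and 0.845 CPM in CSDS, a difference of 2.03 ± 0.50 on the log2 scale. Neither gene's libraries overlapped, but SSDS-shACOT12 2 was close to the highest CSDS library for Arc. Dusp1, the phosphatase that switches off MAP kinases and also a glucocorticoid target, was the most even of the group. It had 21.96, 22.3 and 17.5 CPM in SSDS-shACOT12 against 13.1, 11.6 and 11.1 CPM in CSDS (0.77 ± 0.17). Its level was 25.5, 19.2 and 25.4 CPM in SSDS-GFP and 13.1, 12.1 and 10.8 CPM in Control.

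Several members owed their mean to SSDS-shACOT12 3. Fosb had 9.34, 8.40 and 83.7 CPM in SSDS-shACOT12 against 5.20, 5.75 and 7.18 CPM in CSDS. Nptx2, a secreted pentraxin of excitatory synapses, had 38.3, 18.0 and 229 CPM against 19.1, 28.5 and 24.9 CPM in CSDS. Bdnf, the neurotrophin, had 49.8, 39.2 and 185 CPM in SSDS-shACOT12 and 51.9, 74.0 and 54.2 CPM in CSDS, so that replicate 3 lay above CSDS and replicates 1 and 2 below it. Without SSDS-shACOT12 3 the log2 difference was 1.36 for Fos and 0.55 for Fosb, and it turned to -0.44 for Bdnf.

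**Figure D2:**
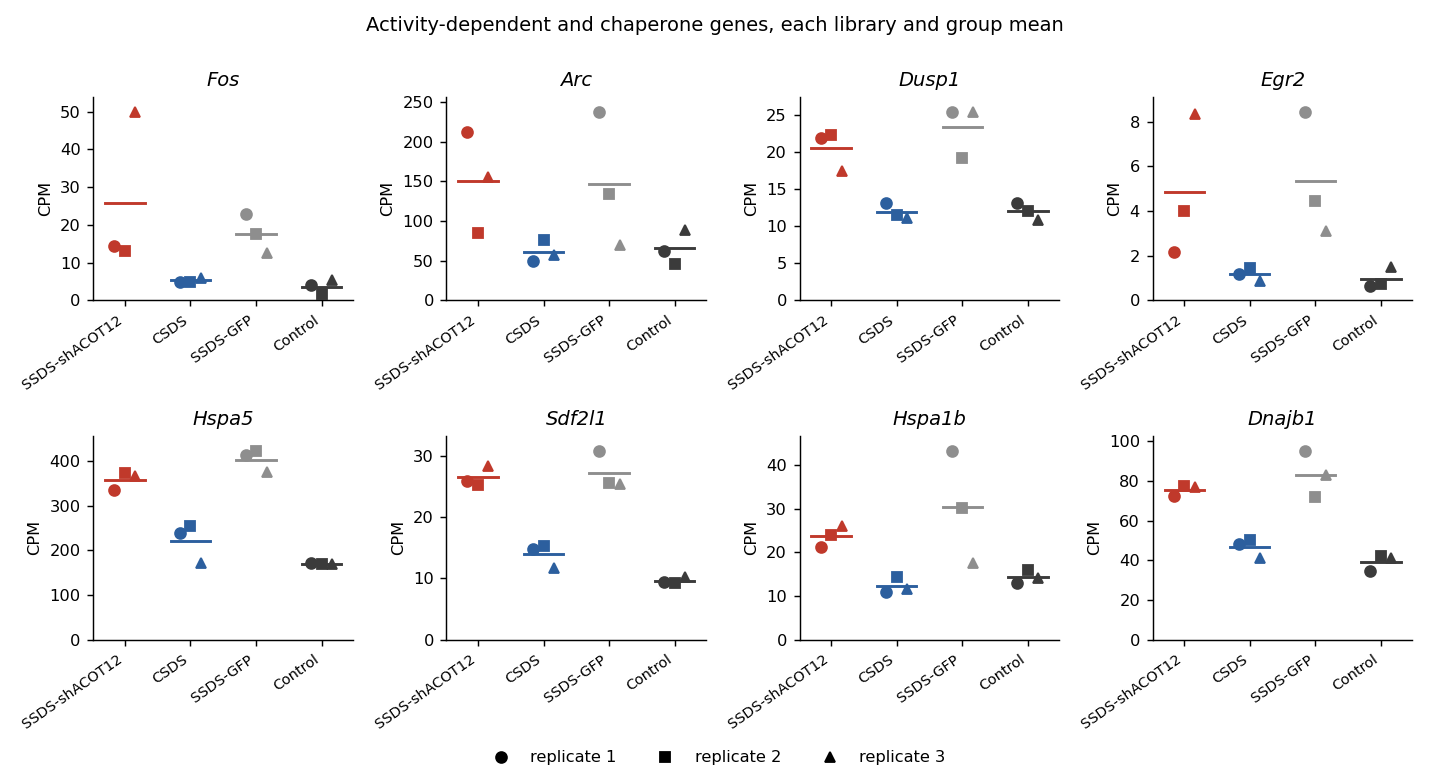
CPM of 4 immediate early genes (top) and 4 chaperone genes (bottom) in every library, grouped as SSDS-shACOT12, CSDS, SSDS-GFP and Control, with marker shape for the replicate and a line for the group mean. The SSDS-shACOT12 libraries lie above the CSDS libraries in all 8 panels, with Fos spread from 12.99 to 49.99 CPM and Dnajb1 from 72.4 to 77.4 CPM among the SSDS-shACOT12 libraries.

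Chaperones of the endoplasmic reticulum (ER) fold secreted and membrane proteins, and their genes are switched on together by the unfolded protein response. 4 promoter stretches are shown for genes of this group and for Dusp1, because sequence elements known to drive such responses were found in them. Each runs 5′ to 3′ over the 200 bases before the RefSeq gene start (build GRCm38.p6), with the match in capitals. The capitals mark the ER stress element in the ER genes, a CCAAT box followed by 9 bases and CCACG, read in the other direction in Creld2 and Calr, and the cAMP response element in Dusp1.
Hspa5, chr2:34771890-34772089, plus strand: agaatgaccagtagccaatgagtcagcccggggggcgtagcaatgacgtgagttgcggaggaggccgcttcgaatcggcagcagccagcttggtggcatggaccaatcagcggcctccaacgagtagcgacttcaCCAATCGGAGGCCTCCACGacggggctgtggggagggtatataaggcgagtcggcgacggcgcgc
Creld2, chr15:88819446-88819645, plus strand: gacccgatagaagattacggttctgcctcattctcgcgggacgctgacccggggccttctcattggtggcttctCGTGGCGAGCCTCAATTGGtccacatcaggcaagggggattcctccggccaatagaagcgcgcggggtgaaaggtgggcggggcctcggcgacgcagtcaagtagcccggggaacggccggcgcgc
Calr, chr8:84846932-84847131, minus strand: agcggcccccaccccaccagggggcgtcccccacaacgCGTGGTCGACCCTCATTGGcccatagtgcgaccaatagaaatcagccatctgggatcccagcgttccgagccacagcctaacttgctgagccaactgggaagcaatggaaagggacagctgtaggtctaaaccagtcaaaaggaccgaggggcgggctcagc
Dusp1, chr17:26508473-26508672, minus strand: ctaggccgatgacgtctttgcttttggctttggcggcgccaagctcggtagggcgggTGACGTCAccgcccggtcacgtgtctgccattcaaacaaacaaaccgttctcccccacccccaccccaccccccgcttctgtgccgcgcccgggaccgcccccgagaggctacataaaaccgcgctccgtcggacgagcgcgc
The search covered RefSeq windows of 300 bases, from 250 before to 50 after the gene start, on both strands. The letters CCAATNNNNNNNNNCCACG were found in 39 of 32851 windows (0.119%), and in the windows of 9 genes among the 24 of the 30 listed ER genes that matched a promoter: Hspa5, Hsp90b1, Calr, Canx, Pdia6, Dnajc3, Creld2, Syvn1 and Derl3. The letters TGACGTCA were found in 1.79% of all windows and in those of Dusp1 and Btg2 among the 24 matched immediate early genes. The heat shock element, searched by its consensus, was in 0.603% of all windows and in those of Hsph1, Hspe1, Hspd1 and Chordc1 among 17 matched heat shock genes. The serum response element, searched by its consensus, was in 1.63% of all windows and in those of Egr2 and Dusp5 among the immediate early genes. A match describes the letters in the window and not a site in use.

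Of the 30 ER genes, 23 had a higher mean level in SSDS-shACOT12 and 7 a lower one, with a median log2 fold change of 0.25. At an unadjusted p under 0.05 there were 11 higher and 0 lower, beside 3.05% and 4.79% of all tested genes. The libraries of 13 lay apart with SSDS-shACOT12 above CSDS, beside 7.32% of all genes. With the GC trend removed 26 were higher, with a median of 0.20. Of the 30, 9 were then higher at an unadjusted p under 0.05, where 721 of 16218 genes were higher. The median without SSDS-shACOT12 2 came to 0.27, with 8 of 30 members called higher and 3 of 30 lower, beside 6.73% and 12.3% of all genes in that fit. No member was called with all 6 libraries in edgeR, and DESeq2 called 1.

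Sdf2l1, an ER chaperone cofactor, had the smallest edgeR p among the genes with a higher level. It had 26.0, 25.3 and 28.3 CPM in SSDS-shACOT12 against 14.8, 15.3 and 11.8 CPM in CSDS, a difference of 0.91 ± 0.16 on the log2 scale (adjusted p = 0.581 in edgeR and 0.0135 in DESeq2). Hspa5, which encodes the main ER chaperone BiP, had 336, 374 and 367 CPM in SSDS-shACOT12 against 238, 254 and 173 CPM in CSDS (0.68 ± 0.17). The 3 knockdown libraries were within a narrow range, and CSDS 3 was the lowest of the CSDS libraries for both genes. Pdia4, a disulfide isomerase, had 52.1, 61.2 and 56.7 CPM against 36.5, 41.2 and 31.3 CPM in CSDS (0.63 ± 0.15). Xbp1, the transcription factor of the unfolded protein response, had 112, 98.6 and 117 CPM against 82.3, 68.9 and 72.4 CPM in CSDS (0.53 ± 0.14).

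Creld2 and Calr, whose promoters are printed above, differed by 0.42 ± 0.16 and 0.37 ± 0.14 on the log2 scale. Hsp90b1 also held the ER stress element, but its libraries overlapped, with 221, 281 and 246 CPM in SSDS-shACOT12 and 232, 239 and 188 CPM in CSDS. Members of low GC content split by library. Dnajb9 had 26.0, 58.8 and 22.4 CPM in SSDS-shACOT12 against 57.9, 54.1 and 46.1 CPM in CSDS, so that replicates 1 and 3 lay below CSDS and replicate 2 above it, and the GC content of its transcript was 40.6%. In SSDS-GFP the levels of Hspa5 were 413, 423 and 376 CPM, and in Control 173, 170 and 170 CPM. CSDS 1 and 2 thus lay between Control and the libraries of both SSDS groups, and CSDS 3, at 173 CPM, was at the Control level.

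Heat shock proteins and their co-chaperones, most of them cytosolic but including the mitochondrial Hspd1 and Hspe1, were described in the same way. Of 22 genes, 16 had a higher mean in SSDS-shACOT12 (21 with the GC trend removed), with a median log2 fold change of 0.35 (0.27 with the GC trend removed, 0.38 without SSDS-shACOT12 2). At an unadjusted p under 0.05 there were 9 higher and 0 lower, beside 3.05% and 4.79% of all tested genes. For 13 all SSDS-shACOT12 libraries lay above CSDS, beside 7.32% of all genes. Without SSDS-shACOT12 2 edgeR called 7 of 22 higher and 5 of 22 lower, beside 6.73% and 12.3% of all genes in that fit. Hspa1b, an inducible member of the HSP70 family, had 21.2, 24.1 and 26.0 CPM in SSDS-shACOT12 against 11.0, 14.3 and 11.7 CPM in CSDS (0.93 ± 0.17, adjusted p = 0.581 in edgeR). Its near-identical copy Hspa1a had 11.7, 12.7 and 10.8 CPM against 5.45, 8.42 and 7.91 CPM in CSDS, and reads could be split between the copies. Dnajb1, the co-chaperone that hands substrates to HSP70, had 72.4, 77.4 and 77.0 CPM in SSDS-shACOT12 against 48.4, 50.05 and 41.0 CPM in CSDS (0.69 ± 0.14). Hspa8, the constitutive member and by far the most abundant, had 2257, 2395 and 2782 CPM against 1752, 1992 and 1474 CPM in CSDS. Levels of Dnajb1 in SSDS-GFP were 95.01, 71.6 and 82.8 CPM and in Control 34.4, 42.0 and 41.3 CPM.

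Red cell genes, which report blood in the tissue, lay lower in SSDS-shACOT12 than in CSDS. Of the 10 genes on the list, 6 passed the expression filter. All 6 had a negative log2 fold change, with a median of -1.23, of -1.39 with the GC trend removed and of -0.93 without SSDS-shACOT12 2. Of the 6, 4 were lower at an unadjusted p under 0.05, beside 4.79% of all tested genes. For 3 all SSDS-shACOT12 libraries lay below CSDS, beside 6.79% of all genes. Hbb-bs (mm10, chromosome 7, 103826534 to 103828096), an adult beta globin chain, had 51.5, 49.8 and 87.8 CPM in SSDS-shACOT12 against 222, 173 and 201 CPM in CSDS, with means of 63.0 ± 21.5 and 199 ± 24.7 CPM (SD, n = 3 each). The highest SSDS-shACOT12 library was well under the lowest CSDS library, and the groups differed by -1.67 ± 0.23 on the log2 scale (SE; adjusted p = 0.397 in edgeR and 5.51e-08 in DESeq2). The near-identical copy Hbb-bt had 4.08, 4.20 and 8.05 CPM against 23.7, 17.1 and 20.5 CPM in CSDS (-1.92 ± 0.28, adjusted p = 0.402 in edgeR), and reads could be split between the copies. Hba-a1, an alpha globin chain, had 41.0, 33.2 and 91.9 CPM against 121, 124 and 106 CPM in CSDS (-1.10 ± 0.33). Alas2, the red cell enzyme of haem synthesis, had 1.55, 1.02 and 4.21 CPM in SSDS-shACOT12 and 7.89, 4.01 and 5.25 CPM in CSDS, where replicate 3 overlapped CSDS.

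The haemoglobin genes together made up 0.0103%, 0.00919% and 0.0196% of counts in SSDS-shACOT12 against 0.0383%, 0.0319% and 0.0348% in CSDS. Their share was 0.0111%, 0.00845% and 0.00686% in SSDS-GFP, and 0.00860%, 0.0119% and 0.0110% in Control. Exact binomial 95% intervals, which cover counting error only, reached at most 0.000970 percentage points to either side. SSDS-shACOT12 lay below CSDS with no overlap (exact permutation test, 2-sided, p = 0.1, the smallest that 3 against 3 libraries allow). CSDS stood above each of the other 3 groups, and SSDS-shACOT12 replicates 1 and 2 were in the range of Control. Without SSDS-shACOT12 3, Hbb-bs, Hbb-bt and Hba-a1 passed the adjusted threshold in edgeR, with log2 differences of -1.98, -2.30 and -1.67. In bulk tissue, fewer cells of a type and less RNA per cell cannot be told apart.

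**Figure D3:**
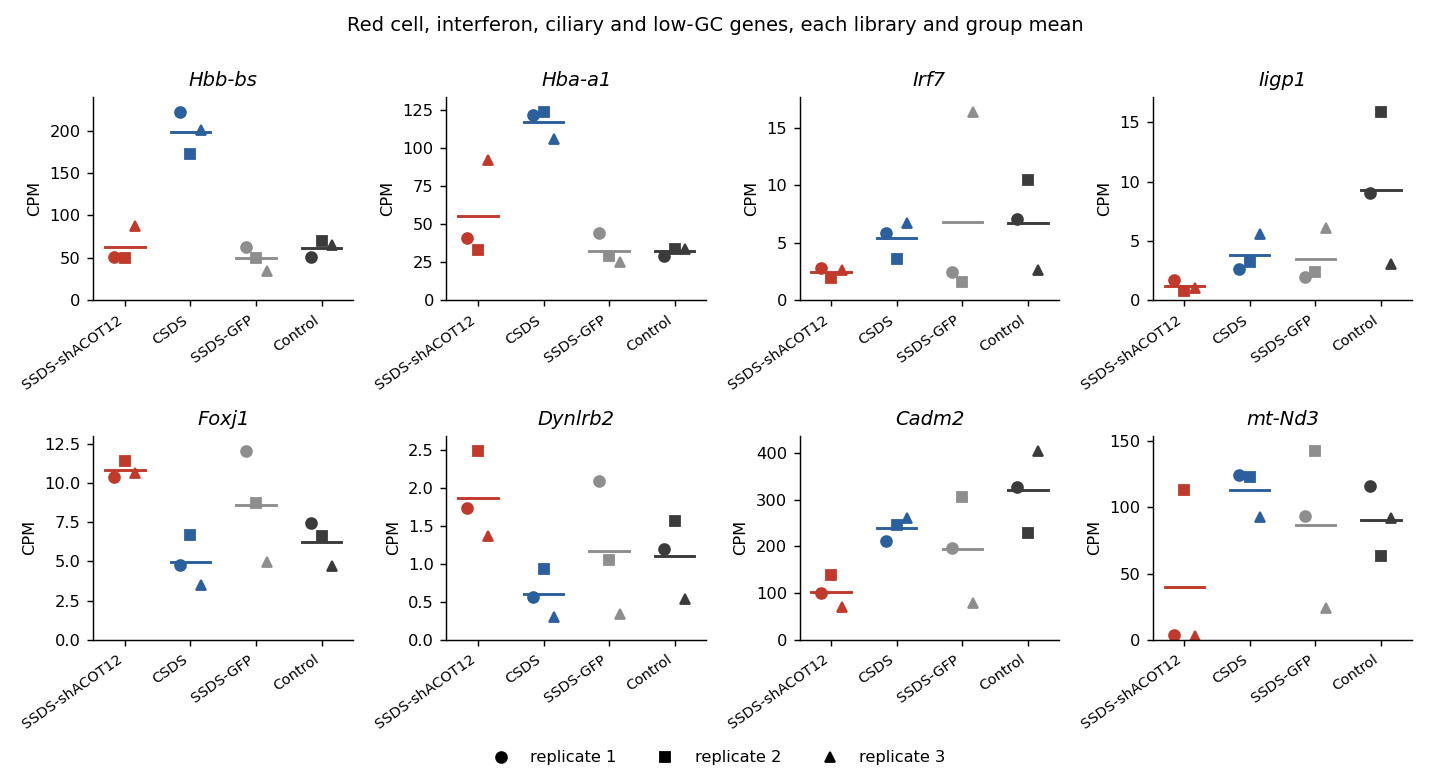
CPM of 8 genes in every library, grouped as SSDS-shACOT12, CSDS, SSDS-GFP and Control, with marker shape for the replicate and a line for the group mean. Hbb-bs lies at 49.8 to 87.8 CPM in SSDS-shACOT12 and at 173 to 222 CPM in CSDS, and mt-Nd3 is near 3 CPM in SSDS-shACOT12 replicates 1 and 3 but at 113 CPM in replicate 2.

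Genes of the vessel wall tended the same way but by less. Of 24 endothelial and blood-brain barrier genes, 21 had a lower mean in SSDS-shACOT12, with a median of -0.27 (-0.21 with the GC trend removed). At an unadjusted p under 0.05 there were 6 lower and 1 higher, beside 4.79% and 3.05% of all tested genes. For 8 all 3 libraries lay below CSDS, beside 6.79% of all genes. The median was -0.19 without SSDS-shACOT12 2, and with the GC trend removed as well it was -0.07, with 9 of 24 genes higher. Slco1a4, a barrier transporter, had 34.5, 56.0 and 36.7 CPM in SSDS-shACOT12 against 68.8, 62.2 and 67.2 CPM in CSDS (-0.65 ± 0.20), and -0.29 with the GC trend removed. Ocln, a tight junction protein, had 13.5, 12.3 and 10.4 CPM against 16.3, 17.1 and 17.1 CPM in CSDS (-0.50 ± 0.17), and -0.17 with the GC trend removed. Cldn5, the main claudin of brain endothelium, was 1 of the 3 genes with a higher mean, with 87.8, 59.0 and 97.0 CPM in SSDS-shACOT12 against 63.3, 51.1 and 52.2 CPM in CSDS. Mural cell, fibroblast and meningeal genes were lower for 18 of 22, with a median of -0.29, of -0.30 with the GC trend removed and of -0.35 without SSDS-shACOT12 2. Abcc9, a pericyte channel subunit, had 5.26, 7.45 and 4.96 CPM against 10.4, 8.24 and 11.0 CPM in CSDS (-0.76 ± 0.24).

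Interferon-stimulated genes, which mark antiviral and interferon signalling, were lower in SSDS-shACOT12 for 32 of 37, with a median log2 fold change of -0.37, of -0.36 with the GC trend removed and of -0.25 without SSDS-shACOT12 2. At an unadjusted p under 0.05 there were 0 higher and 11 lower, beside 3.05% and 4.79% of all tested genes. For 11 all SSDS-shACOT12 libraries lay below CSDS, beside 6.79% of all genes. Without CSDS 3 the median was -0.19, so by the median CSDS 3 carried much of the difference. In that fit 2 of 37 were lower at an unadjusted p under 0.05, where 300 of 16556 genes were lower. Irf7, the transcription factor that amplifies interferon production, had 2.85, 1.91 and 2.66 CPM in SSDS-shACOT12 against 5.89, 3.60 and 6.70 CPM in CSDS (-1.14 ± 0.31, adjusted p = 0.581 in edgeR). Iigp1, an interferon-induced GTPase, had 1.73, 0.828 and 1.05 CPM against 2.63, 3.25 and 5.55 CPM in CSDS (-1.67 ± 0.40), and -1.14 with the GC trend removed. These genes were also uneven in the groups outside the comparison. Irf7 had 2.45, 1.58 and 16.4 CPM in SSDS-GFP and 7.10, 10.4 and 2.62 CPM in Control. Other members, such as Ifi27 with 58.8, 47.1 and 60.5 CPM against 50.5, 50.6 and 40.1 CPM in CSDS, overlapped or lay the other way.

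Genes of inflammation, the theme of the study's title, showed no shared direction. Of 26 tested cytokine and NF-kB genes, 16 had a higher and 10 a lower mean in SSDS-shACOT12, with a median of 0.15 (0.05 with the GC trend removed). There were 0 at an unadjusted p under 0.05, beside 3.05% of all tested genes higher and 4.79% lower. Libraries did not overlap for 0, beside 7.32% of all genes with SSDS-shACOT12 above CSDS and 6.79% below. Without SSDS-shACOT12 3 the median was -0.09, with 8 of 26 higher. Il1b, Tnf and Il6, the classic inflammatory cytokines, had too few counts to be tested. Il1b had 6, 3 and 40 counts in SSDS-shACOT12 against 11, 2 and 4 counts in CSDS. The SSDS-GFP libraries held 0, 2 and 236 Il1b counts and the Control libraries 3, 5 and 6. Tnf had 3, 1 and 11 counts in SSDS-shACOT12 and 0 in each of the CSDS libraries, where a count of 0 allows up to 3. Il6 had 2, 2 and 14 counts against 2, 5 and 5 in CSDS. For all 3 cytokines SSDS-shACOT12 3 was the highest of the 6 libraries compared.

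Genes of microglia, the resident macrophages of the brain, had no shared direction. Of 23 homeostatic microglia genes, 13 were higher and 10 lower, with a median of 0.00. Aif1, the standard microglial marker, had 7.42, 6.11 and 9.85 CPM in SSDS-shACOT12 against 7.52, 5.98 and 6.58 CPM in CSDS (0.20 ± 0.23, adjusted p = 0.731 in edgeR). Tmem119 had 31.9, 19.4 and 29.8 CPM against 25.6, 21.7 and 23.6 CPM in CSDS. P2ry12, a purine receptor of resting microglia with a transcript of 38.6% GC, had 21.5, 37.5 and 11.8 CPM against 41.0, 39.4 and 39.4 CPM in CSDS (-0.77 ± 0.34), and -0.36 with the GC trend removed. Gfap, the astrocyte filament that is induced in reactive astrocytes, had 396, 221 and 1192 CPM in SSDS-shACOT12 against 380, 247 and 291 CPM in CSDS. SSDS-shACOT12 3 stood far above all other libraries for Gfap, and replicates 1 and 2 were near the CSDS range. Of 22 astrocyte identity genes, 10 were higher and 12 lower, with a median of -0.01. Of 27 tested reactive astrocyte genes 18 were higher, with a median of 0.43. At an unadjusted p under 0.05 there was 1 of these in each direction, beside 3.05% of all tested genes higher and 4.79% lower. The sign of the reactive astrocyte median rested on SSDS-shACOT12 3: without it the median was -0.13, with 10 of 27 higher.

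Enzymes that make and use acetyl-CoA, the substrate of ACOT12, differed little. Of 36 tested genes 23 were higher in SSDS-shACOT12 and 13 lower, with a median log2 fold change of 0.09. With the GC trend removed 28 were higher and 8 lower, with a median of 0.10, where 54.64% of all genes were higher. With SSDS-shACOT12 2 also left out 30 of 36 were higher, with a median of 0.15. With all 6 libraries 2 were higher and 1 lower at an unadjusted p under 0.05, beside 3.05% and 4.79% of all tested genes. For 4 the libraries all lay above CSDS, beside 7.32% of all genes. Acss2, the cytosolic and nuclear acetate-to-acetyl-CoA synthetase, had 51.4, 44.9 and 57.0 CPM in SSDS-shACOT12 against 53.9, 51.0 and 52.7 CPM in CSDS (-0.06 ± 0.14, adjusted p = 0.880 in edgeR), a sign that turned with the GC or the length trend removed. Acss1, its mitochondrial counterpart, had 35.8, 33.6 and 37.4 CPM against 32.8, 31.8 and 36.8 CPM in CSDS (0.06 ± 0.14), whose sign also turned with the GC trend removed. Acly, which makes acetyl-CoA from citrate, had 128, 137 and 158 CPM against 121, 122 and 108 CPM in CSDS (0.25 ± 0.14, adjusted p = 0.581 in edgeR), with no overlap of the libraries. Pdk2, a kinase that inhibits pyruvate dehydrogenase, had 120, 114 and 167 CPM against 104, 98.6 and 84.5 CPM in CSDS (0.46 ± 0.18). Among 13 tested acyl-CoA thioesterases 4 were higher and 9 lower, with a median of -0.08 that turned to 0.06 without SSDS-shACOT12 3. Of these, Acot7, the main brain thioesterase, had 334, 316 and 489 CPM in SSDS-shACOT12 against 277, 295 and 246 CPM in CSDS (0.46 ± 0.19). Histone acetylation enzymes and readers were split evenly, with 18 of 36 higher, a median of 0.02 and 0 at an unadjusted p under 0.05.

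**Figure D4:**
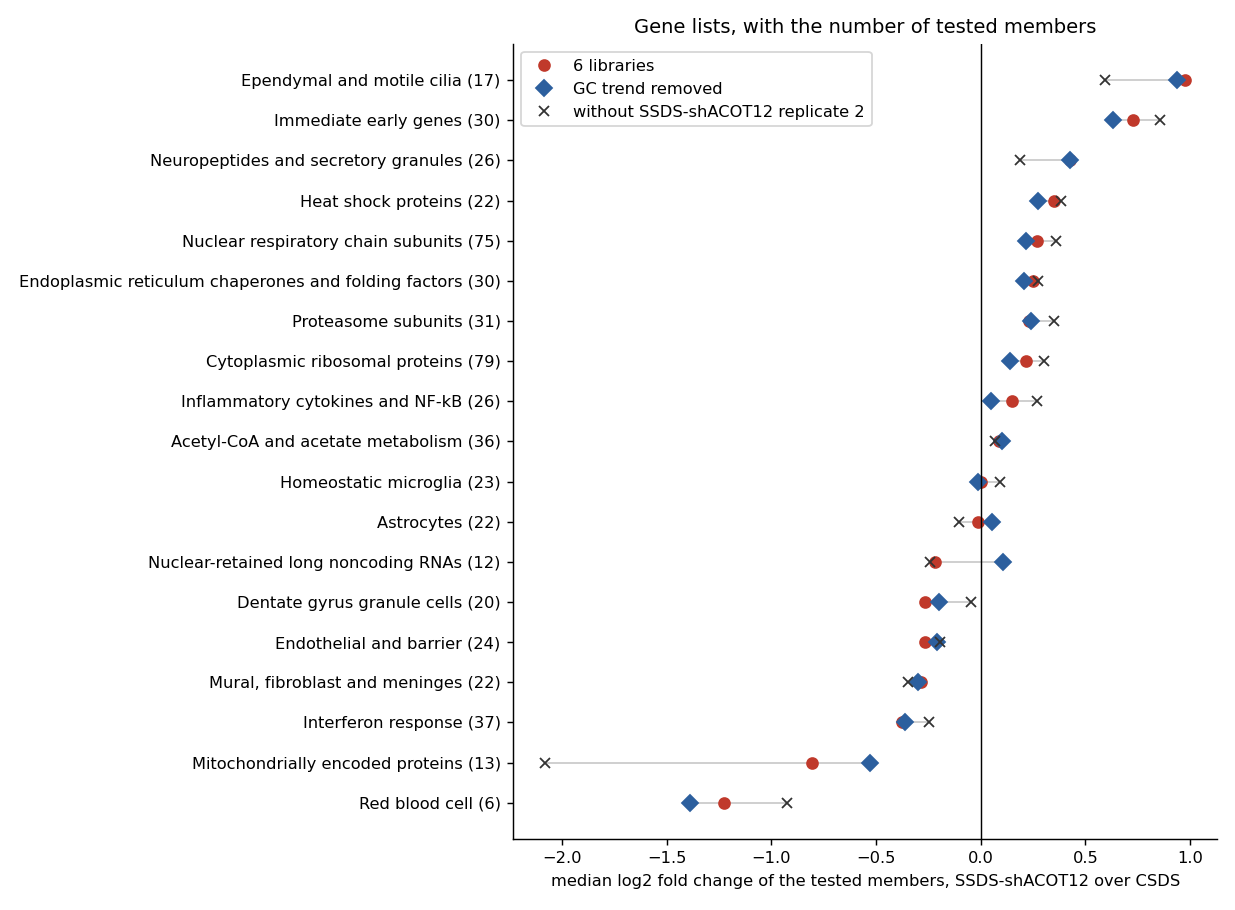
Median log2 fold change of SSDS-shACOT12 over CSDS (horizontal axis) for 19 gene lists, with the number of tested members in parentheses, for the 6 libraries (circles), with the GC trend removed (diamonds) and without SSDS-shACOT12 replicate 2 (crosses). Ependymal and immediate early genes lie furthest to the right and red cell genes furthest to the left with the 6 libraries, and mitochondrially encoded genes move from -0.81 to -2.08 without SSDS-shACOT12 replicate 2.

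Respiratory chain genes of the nucleus and of the mitochondrion lay on opposite sides. Of 75 tested nuclear subunit genes, 72 had a higher mean in SSDS-shACOT12, with a median of 0.27 (0.22 with the GC trend removed). At an unadjusted p under 0.05 there were 6 higher and 0 lower, beside 3.05% and 4.79% of all tested genes. For 18 the libraries all lay above CSDS, beside 7.32% of all genes. Without SSDS-shACOT12 3 the median was 0.14. In that fit 1 of 75 was higher at an unadjusted p under 0.05, where 294 of 16587 genes were higher. The differences were small for each gene. Ndufa12, an accessory subunit of complex I, had 110, 66.5 and 83.8 CPM against 53.4, 62.0 and 42.3 CPM in CSDS (0.71 ± 0.21), and Cox5b, of cytochrome oxidase, had 271, 291 and 364 CPM against 228, 261 and 195 CPM in CSDS (0.42 ± 0.17). Cytoplasmic ribosomal protein genes were higher for 71 of 79, with a median of 0.22 (0.14 with the GC trend removed), and proteasome subunit genes for 25 of 31, with a median of 0.23. Without SSDS-shACOT12 3 these medians were 0.13 for ribosomal and 0.10 for proteasome genes. Over all genes the median log2 fold change was also graded by length, at 0.12 for the shortest of 8 length bins and -0.10 for the longest. With the length trend removed the medians were 0.25 for respiratory chain, 0.21 for ribosomal and 0.23 for proteasome genes.

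Of the 13 mitochondrially encoded protein genes, 12 were lower, with a median of -0.81 (-0.53 with the GC trend removed). Only 1 was lower at an unadjusted p under 0.05, beside 4.79% of all tested genes. None had libraries that did not overlap, beside 6.79% of all genes with SSDS-shACOT12 below CSDS. The group was split by library. Genes encoded on the mitochondrial genome made up 3.23%, 9.24% and 4.31% of all counts in SSDS-shACOT12 against 8.46%, 9.10% and 8.30% in CSDS (exact permutation test, 2-sided, p = 0.4), with exact binomial intervals of at most 0.0143 percentage points to either side. The other groups had 7.98%, 8.84% and 6.65% in SSDS-GFP and 8.31%, 6.81% and 6.31% in Control. mt-Nd3, a small complex I subunit with a transcript of 33.0% GC, had 3.15, 113 and 2.79 CPM in SSDS-shACOT12 against 124, 123 and 92.8 CPM in CSDS. mt-Nd6 had 71.8, 1510 and 118 CPM against 1331, 1712 and 1622 CPM in CSDS. In both, SSDS-shACOT12 2 was in the range of CSDS, and replicates 1 and 3 were far below it. For mt-Co1, the catalytic subunit of cytochrome oxidase, the log2 fold change was -0.45 ± 0.23, and -0.04 with the GC trend removed.

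Ependymal genes, which build the beating cilia of the ventricle lining, were higher in SSDS-shACOT12 for all 17 tested genes of the 19 listed. The median log2 fold change was 0.98 (0.93 with the GC trend removed, 0.59 without SSDS-shACOT12 2, 0.70 without CSDS 3). The unadjusted p was under 0.05 for 7 higher and 0 lower genes, beside 3.05% and 4.79% of all tested genes. For 7 all SSDS-shACOT12 libraries lay above CSDS, beside 7.32% of all genes. Foxj1, the master transcription factor of motile cilia, had 10.4, 11.4 and 10.7 CPM in SSDS-shACOT12 against 4.76, 6.68 and 3.50 CPM in CSDS (1.10 ± 0.25, adjusted p = 0.581 in edgeR). Dynlrb2, a dynein light chain, had 1.73, 2.48 and 1.36 CPM against 0.564, 0.929 and 0.302 CPM in CSDS (1.604 ± 0.46). A member this low in CSDS can pass the expression filter only through SSDS-shACOT12, so the filter favours a higher level there. The mean log2 level of the list relative to the 12 libraries was 0.21, 0.73 and 0.10 in SSDS-shACOT12 against -0.25, 0.05 and -1.17 in CSDS. It was 0.34, 0.32 and -0.39 in SSDS-GFP and 0.11, 0.27 and -0.31 in Control. SSDS-shACOT12 1 and 3 thus lay within the Control range, and CSDS 3 was the lowest library. Without CSDS 3, 15 of 17 genes were higher. Choroid plexus genes, which a dissection near the ventricle can also carry, had a higher mean for 4 of 6, with a median of 0.28 (0.54 with the GC trend removed, -0.05 without SSDS-shACOT12 2, 0.06 without CSDS 3) and 0 of 6 at an unadjusted p under 0.05. Ttr, the abundant carrier protein of that tissue, had 8.29, 2.16 and 3.10 CPM in SSDS-shACOT12 against 3.63, 3.31 and 1.03 CPM in CSDS, and 504, 140 and 7.91 CPM in Control. The part that the dissection had in the ependymal difference was not tested.

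**Figure D5:**
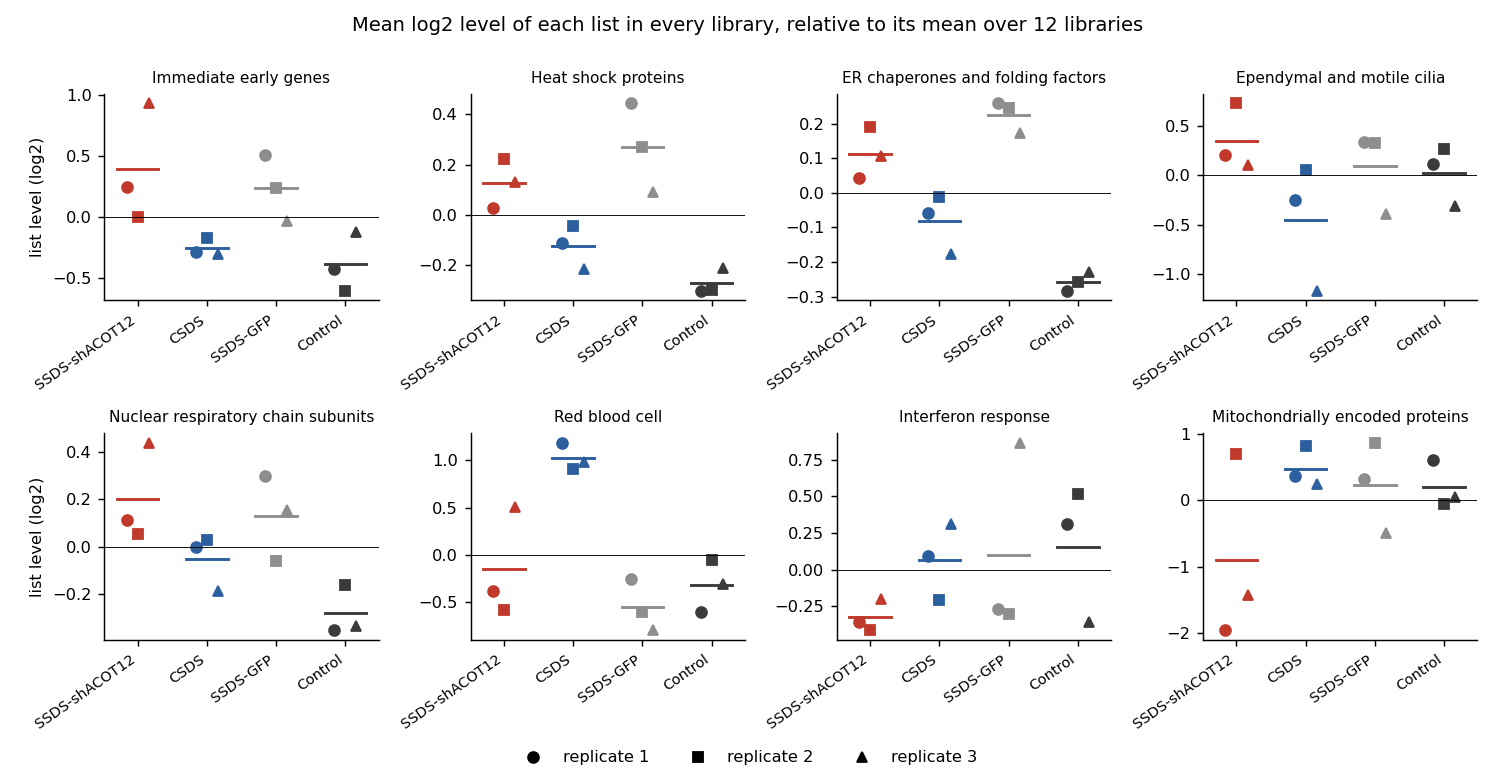
Mean log2 level of 8 gene lists in every library relative to the mean over the 12 libraries (vertical axes), grouped as SSDS-shACOT12, CSDS, SSDS-GFP and Control, with a line for the group mean. Red cell genes are highest in the 3 CSDS libraries, at 0.91 to 1.19, immediate early genes lie at 0.00 to 0.93 in SSDS-shACOT12 and at -0.30 to -0.17 in CSDS, and mitochondrially encoded genes separate SSDS-shACOT12 replicate 2 from replicates 1 and 3.

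Markers of hippocampal subfields were uneven among the SSDS-shACOT12 libraries. Dentate gyrus genes were lower for 14 of 20, with a median of -0.27 (-0.20 with the GC trend removed, -0.04 without SSDS-shACOT12 2). At an unadjusted p under 0.05 there were 7 lower and 1 higher, beside 4.79% and 3.05% of all tested genes. Stxbp6 had 86.4, 65.1 and 92.5 CPM against 117, 125 and 126 CPM in CSDS (-0.61 ± 0.16). Maml2 had 17.3, 13.1 and 11.6 CPM against 21.5, 19.6 and 25.1 CPM in CSDS (-0.67 ± 0.19). With the GC trend removed the difference was -0.30 for Stxbp6 and -0.59 for Maml2. Genes of CA1 and CA3 pyramidal neurons were split, 12 higher and 8 lower, with a median of 0.04 that turned to -0.20 without SSDS-shACOT12 1, and with Man1a at 56.5, 46.8 and 26.9 CPM against 75.2, 103 and 90.3 CPM in CSDS (-1.06 ± 0.26). Markers of the ventral pole had a mean log2 level of -0.68, 1.09 and 0.11 in SSDS-shACOT12 against 0.28, 0.17 and -0.14 in CSDS, so that SSDS-shACOT12 1 held the least and SSDS-shACOT12 2 the most. Of 19 tested markers of the ventral pole 15 were higher, with a median log2 fold change of 0.29 that turned to -0.48 without SSDS-shACOT12 2. Trhr, the receptor of thyrotropin-releasing hormone and one of those markers, had 0.495, 21.1 and 2.48 CPM in SSDS-shACOT12 and 4.89, 4.35 and 2.41 CPM in CSDS.

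Among single genes outside these groups, Mkx, a homeobox factor, had 6.43, 7.07 and 5.02 CPM in SSDS-shACOT12 against 13.2, 15.4 and 19.3 CPM in CSDS (-1.38 ± 0.22, adjusted p = 0.581 in edgeR). Cadm2, a synaptic adhesion molecule with a transcript of 36.9% GC, had 99.7, 139 and 70.6 CPM against 213, 246 and 262 CPM in CSDS (-1.23 ± 0.24), and -0.60 with the GC trend removed. Rhou, a small GTPase, was the most even of the lower genes, with 32.7, 35.2 and 33.2 CPM against 54.9, 50.3 and 50.3 CPM in CSDS (-0.64 ± 0.13), and its difference was -0.68 with the GC trend removed. Kcng1, a silent subunit of voltage-gated potassium channels, had 47.4, 64.1 and 51.8 CPM against 27.6, 30.5 and 31.7 CPM in CSDS (0.85 ± 0.16). Tppp3 and Bfsp2 were higher by 0.71 ± 0.16 and 0.95 ± 0.22, and for Epha3, Fam84b, Rgs7bp, Mterf1b and Ano3 the differences were -0.80 ± 0.17, -1.07 ± 0.24, -0.72 ± 0.16, -1.23 ± 0.28 and -0.74 ± 0.17, with no overlap of the libraries for any of these 7. Of the lower ones, Ano3 was at -0.30 and Epha3 at -0.47 with the GC trend removed.

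Genes of stress hormone signalling showed no shared direction. Of 11 tested genes of the corticotropin-releasing hormone system and steroid receptors, 7 were higher and 4 lower, with a median of 0.05. Nr3c1, the glucocorticoid receptor, had 76.5, 87.5 and 37.2 CPM in SSDS-shACOT12 against 80.1, 88.9 and 79.6 CPM in CSDS, where SSDS-shACOT12 3 was far below the rest and the others were near CSDS. Fkbp5, the receptor's co-chaperone and a classic glucocorticoid target, had 89.6, 60.0 and 85.0 CPM against 80.9, 71.6 and 78.9 CPM in CSDS (0.00 ± 0.17, adjusted p = 0.997 in edgeR). Crhbp, the binding protein of corticotropin-releasing hormone, had 30.7, 35.4 and 46.8 CPM against 27.4, 29.6 and 26.4 CPM in CSDS (0.42 ± 0.18), with no overlap. Tdo2, a tryptophan-degrading enzyme, had 7.30, 3.76 and 1.55 CPM against 9.33, 12.9 and 10.7 CPM in CSDS (-1.40 ± 0.45, and -0.91 with the GC trend removed). Of 27 tested glucocorticoid-responsive genes 17 were higher and 10 lower, with a median of 0.09 (-0.05 without SSDS-shACOT12 3). At an unadjusted p under 0.05 there were 3 higher and 1 lower, beside 3.05% and 4.79% of all tested genes. Mt2, a metallothionein of that list, had 6.06, 4.39 and 5.64 CPM in SSDS-shACOT12 against 7.95, 10.7 and 12.2 CPM in CSDS (-0.95 ± 0.23).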

How the data were processed

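RNA-seq of mouse ventral hippocampus was available for 12 libraries, 3 in each of 4 groups, and the comparison used the 6 SSDS-shACOT12 and CSDS libraries, grouped by the labels. Total RNA was made into libraries with a kit that does not mark strand, per the labels' protocols, so overlapping and antisense genes cannot be told apart. The authors deposited whole-number counts per gene, a gene length in bases and FPKM values, 1 column for each library. HISAT2 2.0.5, featureCounts 1.5.0-p3, DESeq2 and the build mm10 are named in the submitters' processing notes, and the annotation release and strand setting are not given in the sources used here. The library factor behind the deposited FPKM values is likewise not given there, and these values served only for an alternative.

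From the counts, edgeR 4.0.16 (R 4.3.3) was run on the 6 libraries alone with group as the only term: filterByExpr with a minimum count of 10 and a minimum total of 15 kept 16235 of 54532 genes, followed by TMM scaling, the quasi-likelihood test and Benjamini-Hochberg adjustment over all tested genes at 0.05. A standard error is the log2 fold change divided by the square root of F. Printed CPM use TMM factors of all 12 libraries. A list level is the mean over tested members of log2(CPM + 0.5) minus the gene's mean over the 12 libraries. Alternatives were DESeq2 1.42.0, limma 3.58.1, other filters and scalings, a replicate block, FPKM, each replicate left out, and a GC or length trend removed by lowess with a span of 0.3 in each library. GC content was matched for 16218 genes. Total counts per library limit the precision, and intervals cover counting error only. The members and the gene lists were chosen with earlier results of these data known. Genes were named by these criteria: the 10 smallest p-values in each direction among annotated genes with a mean of at least 2 CPM, called list members, up to 2 genes of smallest p from each described list, and a set of stress, glial and acetate genes. Further list members were named after their values were seen.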

Additional observations from a re-analysis of the deposited data

How the results depend on the processing

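The count of genes past an adjusted p of 0.05, which was 0, was also 0 with DESeq2 size factors, limma-voom, a filter of 50 counts, all 12 libraries, FPKM, no mitochondrial genes, and the GC or length trend removed. It was 11 with the DESeq2 Wald test, 1568 with limma-voom and quality weights, 70 with no filter, and 528 with the GC trend removed and SSDS-shACOT12 2 left out. The count at an unadjusted p under 0.05 was 4836, 2457 and 3078 with quality weights, no filter and that last setting, and 2000 with all 12 libraries. Leaving out each replicate in turn gave 0 to 3176 calls and 469 to 5911 genes at an unadjusted p under 0.05: 3176 calls without SSDS-shACOT12 2, 3 without SSDS-shACOT12 3 and 1, Ecel1, without SSDS-shACOT12 1. The cause was not tested. The deviations of same-numbered libraries from their group means correlated at r of -0.07, 0.13 and -0.01, and those of differently numbered ones at -0.10 to 0.14. With 3 libraries in each group these values cannot settle whether the numbers pair the libraries. The replicate block gave 0 calls, with 312 genes higher and 1219 lower at an unadjusted p under 0.05. With all 12 libraries that split was 993 and 1007. Among 111 named genes, 106 kept their direction and call with the GC trend removed. Signs turned for small differences. With the GC trend removed the log2 difference was -0.0194 for Acss1, 0.00125 for Acss2, -0.0748 for Fkbp5, 0.12 for Snhg14 and -0.00633 for Tmem119, and with SSDS-shACOT12 2 also left out it was -0.0317 for Acss1, 0.11 for Acss2, 0.0757 for B2m, 0.17 for Snhg14 and 0.00758 for mt-Co1. Acss2 was at 0.11 with the length trend removed. Fkbp5 was at -0.0152 with limma-voom, -0.00944 with 50 counts, -0.0151 with the replicate block, -0.0144 with FPKM + 0.1, -0.0113 with FPKM + 1 and -0.0219 without mitochondrial genes. Leaving out single replicates gave ranges of -0.132 to 0.0208 for Acss2, -0.107 to 0.155 for Fkbp5, -0.44 to 0.94 for Bdnf, -0.665 to 2.34 for Ccl5, -0.0936 to 0.80 for H2-D1, -0.15 to 0.18 for Kcna1 and -0.0322 to 1.077 for Ttr. Il1b, Tnf, Il6 and Acot12 were too shallow at this depth for a test.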

Other observations

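Neuropeptide and secretory granule genes were higher in SSDS-shACOT12 for 21 of 26, with a median log2 fold change of 0.43. At an unadjusted p under 0.05 there were 5 higher, beside 3.05% of all tested genes. The median was 0.15 without SSDS-shACOT12 3. Penk, the enkephalin precursor, had 48.2, 23.3 and 620 CPM in SSDS-shACOT12 against 20.9, 36.6 and 32.6 CPM in CSDS, and its log2 difference was 2.92 with all libraries and 0.24 without SSDS-shACOT12 3. Npy, the neuropeptide Y gene, had 64.6, 59.5 and 392.4 CPM against 33.9, 45.3 and 49.9 CPM in CSDS (1.98 ± 0.65, adjusted p = 0.581 in edgeR, and 0.52 without SSDS-shACOT12 3). Only for Npy of the pair did all SSDS-shACOT12 libraries lie above CSDS.

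Potassium channel genes were split by sign, 29 higher and 27 lower of 56. At an unadjusted p under 0.05 there were 2 higher and 7 lower, beside 3.05% and 4.79% of all tested genes. With the GC trend removed these were 2 and 3, where 721 and 530 of 16218 genes were. All SSDS-shACOT12 libraries lay above CSDS for 4 and below for 9, beside 7.32% and 6.79% of all genes. Kcnj3, a G protein-gated channel subunit, had 78.3, 109 and 64.7 CPM in SSDS-shACOT12 against 139, 158 and 160 CPM in CSDS (-0.87 ± 0.20). Of 23 circadian clock genes 13 were higher and 10 lower, and the output factor Hlf had 95.7, 124 and 78.0 CPM against 157, 144 and 156 CPM in CSDS (-0.63 ± 0.19). Sox10, the transcription factor of oligodendrocytes, had 55.6, 46.3 and 44.7 CPM against 35.4, 34.8 and 30.7 CPM in CSDS (0.52 ± 0.15), while the 29 oligodendrocyte genes had a median of 0.02.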
